A study of Mus musculus with 8 samples.

Results

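The transcripts of the epithelial alarmin cytokines IL-33, IL-18 and TSLP, with that of the IL-33 receptor ST2 (gene Il1rl1), were followed in RNA from mouse epidermis. Their rows were taken by gene symbol from both deposited tables, which gives 4 genes of the 16902 listed. All 4 had values in every library and all 4 passed the filter on low values (10 or more on average in at least 1 of the tables). Back skin of CD1 mice, an outbred stock, was treated with dispase to lift the epidermis off the dermis, and polyadenylated RNA of the epidermis was sequenced. The study set mice lacking Ovol1, which encodes a zinc-finger repressor active in skin epithelium, against controls, with and without IMQ (imiquimod, which activates a Toll-like receptor and is painted on mouse skin as a model of psoriasis).

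Each of the 4 groups had 2 libraries, 1 of a female and 1 of a male. They were Ovol1 -/- mice given IMQ (KO IMQ), Ovol1 +/+ mice given IMQ (control IMQ), Ovol1 -/- mice with no treatment (KO untreated) and Ovol1 +/- mice with no treatment (control untreated). The control genotype therefore differed between the treatments. Ages, the IMQ dose and its duration, and whether a library was 1 animal or a pool, were not stated in the labels. In the deposited tables, 1 per treatment, the reads of each library had been divided by a size factor of that library, and the tables had been scaled apart. Undoing this division gave 28.6 to 43.1 M whole reads per library.

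Ovol1 itself was read in every library. Its deposited values were 13457 and 13077 in the KO IMQ libraries, against 7635 and 9556 in control IMQ, and 27433 and 26601 in KO untreated, against 16629 and 14582 in control untreated. The tables hold 1 value per gene and no exons, so they do not check the genotype, and every direction below is a direction of the libraries labelled KO. Keratinocyte marker genes (all 8 listed, none at 0) summed to 20909 and 28986 CPM (a gene's reads on a scale common to all libraries) in KO IMQ, against 29941 and 36831 in control IMQ, and to 30825 and 30091 in KO untreated, against 33796 and 34015 in control untreated. Both KO libraries were thus below both controls in each treatment. Among single genes past the filter, 26.4% had that layout under IMQ and 16.4% untreated. Dermal fibroblast genes (all 8 listed) summed to 67.7 CPM in the KO IMQ female and 1640 in the KO IMQ male, against 240 in the control IMQ female and 2578 in the control IMQ male. In untreated epidermis they summed to 62.5 in the KO female and 506 in the KO male, against 123 in the control female and 474 in the control male. Female and male libraries of every group thus differed in this list, with no listed gene at 0.

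Alarmins are cytokines that epithelial cells hold or make at short notice and release on damage or contact with allergens. IL-33 sits in the nucleus of keratinocytes, endothelial cells and fibroblasts and acts, once released, through ST2 and its partner IL-1RAP on mast cells, group 2 innate lymphoid cells, T helper 2 cells and regulatory T cells. IL-18 is stored in keratinocytes as a precursor that caspase-1 cleaves, and it acts through IL-18R1 and IL-18RAP, while the binding protein IL-18BP takes it up as a decoy. TSLP is made by keratinocytes and acts through CRLF2 and IL-7R on dendritic cells and lymphocytes, and it is known for its part in atopic dermatitis.

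On the GRCm38 (mm10) genome with the GENCODE vM21 annotation, all 4 are protein-coding genes on the plus strand. Il33 (ENSMUSG00000024810.16) lies at chr19:29925114-29960718 and Il1rl1 (ENSMUSG00000026069.15) at chr1:40429570-40465415. Il18 (ENSMUSG00000039217.13) lies at chr9:50554827-50581840, and Tslp is placed further on. Ovol1 shares chromosome 19 with Il33. Starts of Il33, Il1rl1 and Il18 were taken from the RefSeq promoter table for GRCm38.p6, in 5 windows, and Tslp was not looked up there. The 250 bases before each start were searched on both strands for 5 motifs. These were the Ovo core CCGTTA (in 2.18% of all 32851 windows of the same length), the AP-1 site TGANTCA (6.75%), the STAT site TTCNNNGAA (7.02%), the TATA box TATAAA (12.4%) and an IRF site, GAAA and again GAAA after 2 bases (2.98%). Neither Il1rl1 window held a match to any of them. The windows of Il33 and Il18 are printed because these genes have the largest and the opposite genotype differences described below; they lie at chr19:29924863-29925112, at chr19:29945540-29945789 (inside the Il33 gene) and at chr9:50554450-50554699, all on the plus strand, and capitals mark motif matches.
Il33, first start: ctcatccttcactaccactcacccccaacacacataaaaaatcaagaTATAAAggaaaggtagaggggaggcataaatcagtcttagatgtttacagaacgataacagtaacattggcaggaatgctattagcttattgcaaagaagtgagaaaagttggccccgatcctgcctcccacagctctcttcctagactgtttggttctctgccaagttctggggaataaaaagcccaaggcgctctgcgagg
Il33, second start: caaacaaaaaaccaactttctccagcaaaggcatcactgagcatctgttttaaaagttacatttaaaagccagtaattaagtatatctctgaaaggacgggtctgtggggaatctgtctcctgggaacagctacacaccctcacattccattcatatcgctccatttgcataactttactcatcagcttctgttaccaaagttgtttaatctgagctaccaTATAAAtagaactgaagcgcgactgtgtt
Il18: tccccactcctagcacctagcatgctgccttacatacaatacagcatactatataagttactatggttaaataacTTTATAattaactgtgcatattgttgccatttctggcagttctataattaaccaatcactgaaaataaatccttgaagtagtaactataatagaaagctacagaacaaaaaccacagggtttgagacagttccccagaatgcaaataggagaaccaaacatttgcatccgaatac
Each window held 1 match and it was to TATAAA, 203 bases before the first Il33 start, 29 bases before the second Il33 start and, on the reverse strand, 175 bases before the Il18 start. The letters of the Ovo core were in none of the 5 windows.

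Per length of transcript, Il18 and Il33 were the abundant alarmin transcripts of this epidermis and Il1rl1 the scarcest. Over all 8 libraries Il18 averaged 50.4 ± 22.5 CPM per kb of exon (SD, n = 8), Il33 27.0 ± 22.3, Tslp 3.12 ± 1.52 and Il1rl1 0.142 ± 0.121. In the KO IMQ libraries the order of the upper pair was the other way round, with Il33 at 61.6 ± 11.98 CPM per kb and Il18 at 31.1 ± 16.3 (SD, n = 2 each). In control IMQ Il18 was at 52.2 ± 16.4 and Il33 at 14.4 ± 7.41 CPM per kb. KO untreated libraries had 68.7 ± 23.2 for Il18 and 14.6 ± 4.02 for Il33, and control untreated libraries had 49.6 ± 32.2 and 17.3 ± 7.46. Il18 and Il33 lay within each other's spread over all 8 libraries, whereas the lowest Il33 library (9.13 CPM per kb) lay above the highest Tslp library (5.83), and the lowest Tslp library (1.86) above the highest Il1rl1 library (0.391).

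**Figure D1:**
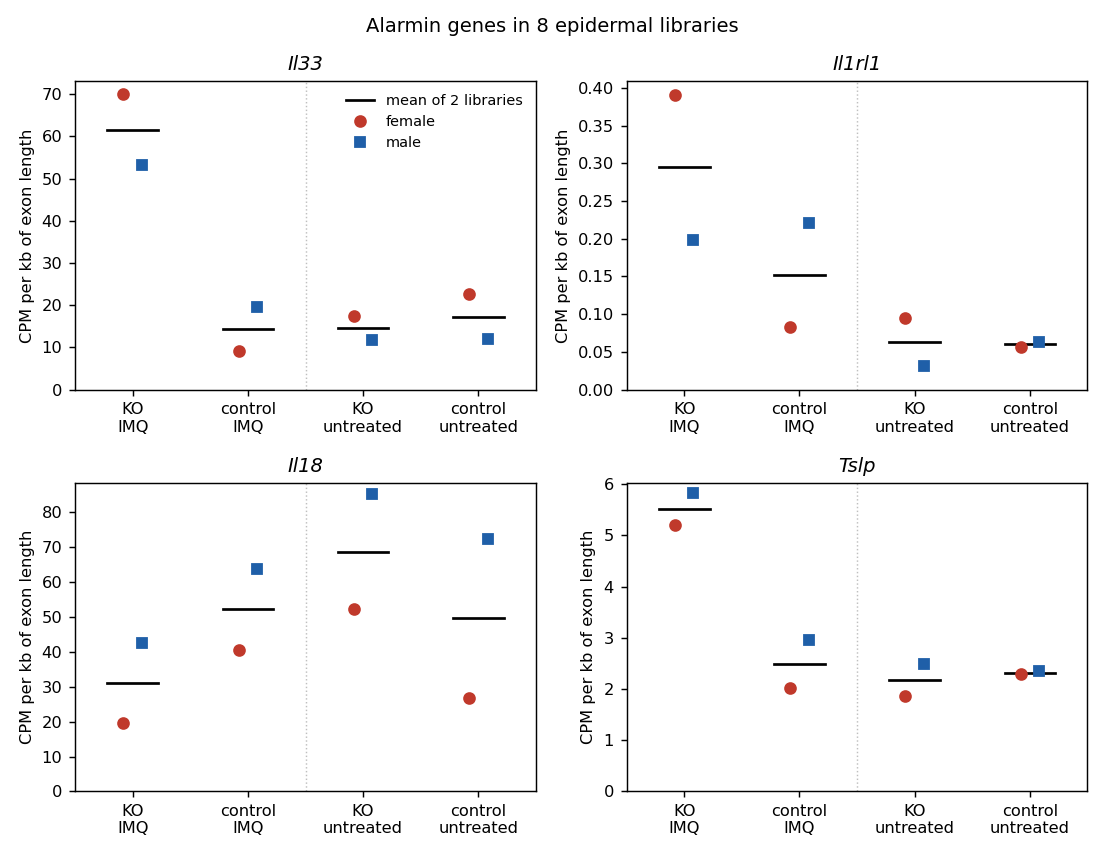
Level of each of the 4 genes in every library, as CPM of recovered reads per kb of exon length (linear axes from 0; circles are females, squares males, bars the mean of 2 libraries). The KO IMQ libraries stand above the others for Il33 (53.1 and 70.1) and Tslp (5.21 and 5.83), and males stand above females in each group for Il18.

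Il33 had its highest values in the IMQ-treated epidermis labelled KO. The deposited value was 6265 in the female and 4700 in the male of KO IMQ, against 804 in the female and 1741 in the male of control IMQ. Untreated libraries held 1903 (female) and 1291 (male) in KO, against 2424 (female) and 1288 (male) in control. Both KO IMQ libraries were thus above each of the other 6. This also held on the CPM scale given below, which joins the separately scaled tables. How many genes share that layout was not counted, but 26.6% of the genes past the filter had both KO IMQ libraries above both control IMQ ones. The untreated genotypes overlapped. Recovered reads ran from 876 to 6302, so counting error is small beside these differences.

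Under IMQ the mean of Il33 was 5482 ± 1107 in KO and 1273 ± 663 in control (SD, n = 2 each), a log2 fold change of 2.20 (SE 0.42, 95% interval 1.21 to 3.18) on the log2(value + 1) scale. Of the 14614 genes tested, 53 (0.363%) had a fold change at least as high, Il33 included. In limma with Benjamini-Hochberg adjustment over these genes its adjusted p was 0.0714 (unadjusted 0.00101), above the threshold of 0.05. DESeq2 on the recovered reads gave 2.14 with an adjusted p of 1.14e-05 and edgeR 2.10 with 0.0831, so the call rests on the tool. Within a sex the ratio of KO to control was 7.79 in females and 2.70 in males. Leaving out the control IMQ female, the lowest library, gave a limma log2 fold change of 1.64, and leaving out the control IMQ male gave 2.75.

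In untreated epidermis Il33 averaged 1597 ± 433 in KO and 1856 ± 803 in control (SD, n = 2 each). The log2 fold change was -0.17 (SE 0.42, 95% interval -1.16 to 0.81; limma adjusted p = 1.00), and its sign turned when either the KO male (0.11) or the control female (0.28) was left out. The difference between the genotype effects, IMQ minus untreated, was 2.37 on the log2 scale (SE 0.60, 95% interval 0.97 to 3.76; unadjusted p 0.00472). It did not pass in limma (adjusted p = 0.476) and passed in DESeq2 (2.38, adjusted p = 0.00860). That difference spans a change of control genotype as well as of treatment, and these cannot be told apart.

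Tslp showed the same layout at a lower level and with closer replicates. The gene (ENSMUSG00000024379.4) lies at chr18:32815383-32819797 in the same annotation. Its deposited values were 215 (female) and 238 (male) in KO IMQ, against 81.7 (female) and 121 (male) in control IMQ. KO untreated libraries held 93.2 and 126, against 113 and 116 in control untreated. The 2 KO IMQ libraries were again above all 6 others, on the CPM scale too, and recovered reads ran from 89 to 250 per library. The share of all genes with this layout, which Il33 had as well, was not counted.

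The IMQ means of Tslp were 226 ± 16.3 in KO and 101 ± 27.8 in control (SD, n = 2 each), a log2 fold change of 1.18 (SE 0.27, 95% interval 0.56 to 1.80; limma unadjusted p 0.00258, adjusted p = 0.0875). At least as high a fold change was found for 2.03% of the genes tested. The ratio of KO to control was 2.63 in females and 1.96 in males. DESeq2 called it (1.20, adjusted p = 0.00556), whereas limma did not. Untreated means were 109 ± 23.0 in KO and 115 ± 1.97 in control (log2 fold change -0.08, SE 0.27, 95% interval -0.70 to 0.54; limma adjusted p = 1.00). The difference of the genotype effects was 1.26 (SE 0.38, 95% interval 0.38 to 2.13; limma adjusted p = 0.476).

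Il18 was the member whose genotype difference pointed the other way under IMQ. Its deposited values were 624 (female) and 1347 (male) in KO IMQ, against 1279 (female) and 2026 (male) in control IMQ. Without treatment they were 2037 (female) and 3333 (male) in KO, against 1031 (female) and 2772 (male) in control. The genotypes overlapped in both treatments, because the male KO IMQ library was above the female control one and the female KO untreated library below the male control one. Within each sex, however, the KO value was below the control under IMQ (ratios 0.488 in females and 0.665 in males) and above it without treatment (1.98 in females and 1.20 in males). This layout was shared by 7.81% of the genes tested.

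The log2 fold change of Il18 was -0.81 under IMQ (SE 0.54, 95% interval -2.06 to 0.44; limma adjusted p = 0.406) and 0.62 untreated (SE 0.54, 95% interval -0.63 to 1.88; limma adjusted p = 1.00). Group means were 985 ± 511 in KO IMQ and 1652 ± 528 in control IMQ, and 2685 ± 917 in KO untreated and 1901 ± 1231 in control untreated (SD, n = 2 each). The difference between the genotype effects was -1.44 (SE 0.76, 95% interval -3.21 to 0.34; limma adjusted p = 0.535). Much of the spread lay between the sexes: the male value was 2.16 times the female one in KO IMQ, 1.58 in control IMQ, 1.64 in KO untreated and 2.69 in control untreated. A male value above the female one in all 4 groups was found for 12.1% of the genes tested. The dermal fibroblast sums given above were also higher in the male of every group, and their part in the Il18 values was not tested. With sex as a term in limma the SE of Il18 was 0.20 and its adjusted p under IMQ 0.0758, still above the threshold. Without the control untreated female the untreated fold change was -0.09.

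Il1rl1, whose gene gives both the membrane receptor ST2 and a soluble decoy form that gene-level values do not separate, was read only 8 to 84 times per library. Its deposited values were 83.5 (female) and 41.8 (male) in KO IMQ, against 17.4 (female) and 46.8 (male) in control IMQ. They were 24.9 and 8.24 in KO untreated, against 14.7 and 16.1 in control untreated. The genotypes overlapped in both treatments. The log2 fold change was 1.02 under IMQ (SE 0.66, 95% interval -0.53 to 2.57; limma adjusted p = 0.396) and -0.08 untreated (SE 0.66, 95% interval -1.63 to 1.46; limma adjusted p = 1.00), and edgeR and DESeq2 gave 0.08 and 0.09 for the untreated one. The KO to control ratio under IMQ was 4.79 in females and 0.894 in males. The interval under IMQ thus holds 0 as well as differences the size of that of Il33.

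In limma, 0 of the 4 genes passed an adjusted p of 0.05 under IMQ, where 64 of the 14614 genes did (0.438%; 23 or 0.157% higher and 41 or 0.281% lower in KO). None of them passed untreated or for the difference of effects, where limma called 0.0% of all genes and edgeR called 0. DESeq2 called 87 genes untreated (0.595%) and 98 for the difference (0.671%). At an unadjusted p under 0.05 in limma, 652 genes stood out untreated (2.79% higher and 1.67% lower) and 1472 for the difference (4.05% higher and 6.02% lower). At an unadjusted p under 0.05, Il33 and Tslp were higher in KO IMQ, 2 of 4, against 10% of all genes. For the same pair both KO IMQ libraries were above both controls, as for 26.6% of all genes. The count of 64 became 358 with sex as a block and 1247 in DESeq2 (8.53%). Leaving out 1 library moved it to 0 without any of the 4 untreated libraries, to 3 without the KO IMQ female, 299 without the KO IMQ male, 5 without the control IMQ female and 49 without the control IMQ male.

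**Figure D2:**
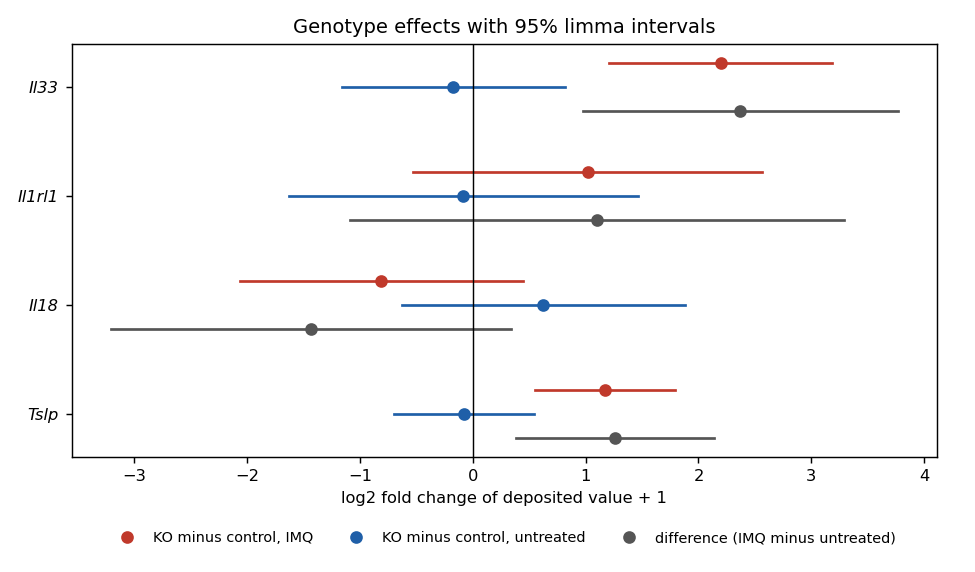
Log2 fold change of each gene, KO minus control, under IMQ and untreated, with the difference of the effects (points; lines are 95% intervals from limma on log2 of the deposited value + 1). The IMQ intervals of Il33 (1.21 to 3.18) and Tslp (0.56 to 1.80) lie above 0, those of Il1rl1 and Il18 include it, and all untreated intervals include it.

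IMQ was set against no treatment on CPM of the recovered reads, scaled over all 8 libraries, and no test was run. Control libraries were Ovol1 +/+ with IMQ and Ovol1 +/- without. Their ratios thus span a change of genotype as well as of treatment, and these cannot be told apart. In KO epidermis Il33 stood at 202 and 153 CPM with IMQ and at 50.4 and 34.0 without (female, then male), a ratio of group means of 4.17 after adding 0.5. Control epidermis had 26.3 and 56.6 CPM with IMQ and 65.1 and 34.7 without, so the control libraries overlapped. Their female was lower with IMQ and their male higher, at log2 ratios of -1.29 and 0.70.

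Tslp in KO stood at 6.93 and 7.76 CPM with IMQ and 2.47 and 3.31 without (ratio 2.31). In control it was at 2.68 and 3.93 with IMQ and 3.04 and 3.12 without, again overlapping. Il1rl1 was the only one of the 4 with IMQ libraries above the untreated ones in KO and in control. It stood at 2.70 and 1.37 CPM against 0.658 and 0.217 in KO, and at 0.571 and 1.52 CPM against 0.395 and 0.434 in control.

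Il18 in KO stood at 20.2 and 43.9 CPM with IMQ and 53.9 and 87.8 without, a log2 ratio of -1.13. That ratio was -0.68 without the KO IMQ female, -1.79 without the KO IMQ male, -1.44 without the KO untreated female and -0.74 without the KO untreated male. Its control libraries held 41.9 and 65.8 CPM with IMQ and 27.7 and 74.6 without (log2 ratio 0.07), and overlapped. In KO, then, IMQ libraries were above the untreated ones for 3 of the 4 genes and below for 1, where 39.5% of all genes lay above and 40.4% below. In control the count was 1 above and 0 below, against 35.1% and 32.5%. Medians over all genes were -0.02 in KO and 0.02 in control on the log2 scale.

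**Figure D3:**
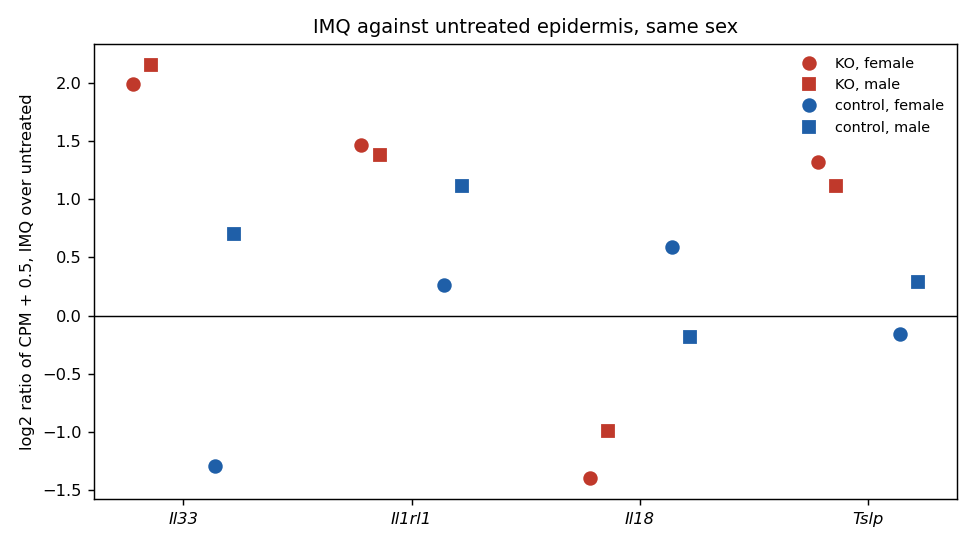
Log2 ratio of CPM + 0.5, IMQ over untreated, within each sex for KO and for control (1 point per pair of libraries, and the line marks no difference). Control pairs set Ovol1 +/+ with IMQ against Ovol1 +/- without. Both KO points are above 0 for Il33, Il1rl1 and Tslp and below 0 for Il18 (-1.40 in females and -0.99 in males), while control females and males fall on both sides of 0 for Il33, Il18 and Tslp.

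Of the marker lists, the neutrophil one had its highest sums in the KO IMQ libraries, as Il33 and Tslp had their highest values. For 26.6% of single genes tested, both KO IMQ libraries were above both control IMQ ones. Neutrophil genes (6 of 8 listed were in the tables) summed to 595 CPM in the female and 465 in the male of KO IMQ, against 84.4 and 282 in control IMQ, and to 20.4 to 31.4 in untreated libraries. Within that list, in the KO IMQ libraries, S100a8 and S100a9, which inflamed keratinocytes also make, and the chemokine receptor Cxcr2 carried the sum. Mmp9 lay the other way, at 264 and 214 in KO IMQ, against 791 and 372 in control IMQ, and Retnlg and Mmp8 had 0 to 5 reads in every library and were at 0 in several. Endothelial genes (all 8 listed, none at 0) summed to 4.04 and 5.77 CPM in KO IMQ, against 36.7 in the female and 6.31 in the male of control IMQ, and the female is the library lowest in Il33. The KO IMQ sums of that list lay within the range of the untreated libraries, 3.84 to 7.24 CPM. Macrophage and monocyte genes (7 of 8) summed to 116 and 143 CPM in KO IMQ, against 223 and 140 in control IMQ, and these sums overlapped. Gene by gene, 6 of the 7 were lower in KO IMQ, with a median log2 fold change of -1.13, beside -0.01 over all genes. At an unadjusted p under 0.05 in limma 4 of them stood lower, against 11.9% of all genes, and 0 passed the adjusted threshold. The part of neutrophils, endothelial cells and macrophages in the alarmin values was not tested. In bulk RNA, fewer cells of a type and less RNA per cell cannot be told apart.

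Of the genes that carry the IL-33 signal, the co-receptor Il1rap overlapped between the genotypes in both treatments. It was at 1288 and 1447 in KO IMQ, against 1364 and 1514 in control IMQ, with a log2 fold change of -0.07 (95% interval -0.35 to 0.20). In limma 0 of the 12 receptor and signalling genes passed in any contrast, and their median log2 fold change was -0.02 under IMQ, beside -0.01 over all genes. The adaptor Myd88 (log2 fold change 0.42, SE 0.17, limma adjusted p = 0.199) and the kinase Irak4 (0.58, SE 0.19, limma adjusted p = 0.153) stood higher in KO IMQ at an unadjusted p under 0.05. Irak3, an inhibitor of this cascade, was at 2068 and 1753 in KO untreated, against 1297 and 921 in control untreated (0.80, SE 0.18, limma adjusted p = 0.448). Under IMQ it was at 1884 and 2100 in KO and 2110 and 1915 in control.

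The IL-18 receptor subunit Il18r1 was the one gene of its list that stood lower in KO in both treatments. Its values were 492 and 453 in KO IMQ, against 982 and 1242 in control IMQ, and 470 and 566 in KO untreated, against 828 and 1566 in control untreated. In each treatment both KO libraries were below both controls, a layout found for 26.4% of genes under IMQ and 16.4% untreated. The log2 fold changes were -1.22 (SE 0.29, limma adjusted p = 0.0915) under IMQ and -1.14 (SE 0.29, limma adjusted p = 0.537) untreated, and the difference between them was -0.08 (SE 0.41). The signalling subunit Il18rap had 190 and 121 in KO IMQ, against 140 and 121 in control IMQ. The decoy Il18bp had 203 and 132 in KO IMQ, against 164 and 190 in control IMQ, and overlapped likewise. Ifng, the product of IL-18-driven lymphocytes, was under the filter, with values of 0 to 5.51.

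Casp1, which cleaves the IL-18 precursor, was at 510 and 538 in KO IMQ, against 602 and 585 in control IMQ, and at 1024 and 1225 in KO untreated, against 794 and 839 in control untreated. Its log2 fold change was -0.18 under IMQ and 0.46 untreated (SE 0.14 each; limma adjusted p = 0.472 and 0.773), with a difference of -0.64 (limma adjusted p = 0.476). Both KO libraries were below both controls under IMQ and above them without treatment, the sign pattern that Il18 had within each sex. Of all genes tested, 26.4% had the IMQ layout, 17.4% the untreated one and 7.81% the sign pattern within each sex. Casp4, the inflammatory caspase that senses lipopolysaccharide, had a log2 fold change of 0.61 untreated. The adaptor Pycard, which joins inflammasome sensors to caspase-1, was at 353 and 539 in KO IMQ, against 799 and 1009 in control IMQ (-1.04, SE 0.29, limma adjusted p = 0.119). The related genes Nlrp10 (-1.05) and Nlrp1a (-1.80) also stood lower in KO IMQ. Of the 18 inflammasome and protease genes tested, 0 passed in limma in any contrast, and 2 stood higher and 3 lower under IMQ at an unadjusted p under 0.05, against 10% and 11.9% of all genes. The gasdermin Gsdme (0.78), which stood higher, was named after its values were seen. Prtn3, a neutrophil protease, had -1.60 untreated from values of at most 24.7.

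The TSLP receptor chain Crlf2 was at 143 and 180 in KO IMQ, against 194 and 184 in control IMQ (log2 fold change -0.23, 95% interval -0.88 to 0.41). Il7r, its partner chain, through which lymphocytes also bind IL-7, was at 1025 and 967 in KO IMQ, against 739 and 368 in control IMQ. Both KO libraries were above both controls, as for 26.6% of all genes. The log2 fold change of Il7r was 0.93 (SE 0.35, limma adjusted p = 0.183). The transducer Stat5a had 0.61 and its paralogue Stat5b -0.36 under IMQ. None of the 7 receptor and signalling genes passed in limma in any contrast, with a median of 0.23 under IMQ.

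Genes known to switch Tslp on or off in keratinocytes lay mostly on the lower side in KO IMQ. Of the 17 tested, 0 passed in limma, 1 stood higher and 5 lower at an unadjusted p under 0.05 (10% and 11.9% of all genes), and 14 had a negative fold change (7489 of all 14614 genes did), with a median of -0.26 against -0.01 over all genes. The 8 keratinocyte markers lay the same way, 7 of them negative, with a median of -0.50, and their part in these values was not tested. The nuclear receptor Rarg, which with RXRs holds Tslp down in mouse keratinocytes, was at 2886 and 3388 in KO IMQ, against 6114 and 4467 in control IMQ (-0.74, SE 0.17, limma adjusted p = 0.0878). Its untreated values were 8505 and 9413 in KO, against 8907 and 8845 in control. Rxra (-0.56, limma adjusted p = 0.0714), named after its values were seen, lay the same way. F2rl1, the protease receptor PAR2 that raises TSLP, had -0.79, and Stim1, the calcium sensor of the ORAI1 channel on the same route, had -0.57. Vdr, the vitamin D receptor through which low-calcemic vitamin D analogs raise Tslp in mice, had 0.06. Nfatc2, a calcium-dependent factor, had a difference of the genotype effects of -0.74.

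The type 2 cytokines that alarmins call up in lymphocytes gave few reads in this epidermis. Il13 was at 43.7 and 28.5 in KO IMQ, against 35.8 and 30.8 in control IMQ, and Il4 at 13.9 and 8.56, against 16.5 and 9.13. Il25, a further epithelial alarmin of the IL-17 family, had only 6 reads and 1 read in KO IMQ, against 37 and 26 reads in control IMQ. Its deposited values were 5.96 and 0.951 in KO IMQ, against 34.0 and 29.7 in control IMQ, and 20.7 and 42.2 in KO untreated, against 25.9 and 37.6 in control untreated. The log2 fold change of Il25 under IMQ was -3.15 (SE 0.66, limma adjusted p = 0.0790), the reverse in sign of Il33 and Tslp. Of the 9 type 2 cytokine and receptor genes tested and the 9 response genes tested, 0 passed in limma in any contrast.

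Summed markers of the cells that receive these cytokines overlapped between the genotypes under IMQ in 4 of 5 lists. Among single genes tested, 26.6% had both KO IMQ libraries above both controls and 26.4% had both below. Mast cell and basophil genes (7 of 11 listed were in the tables) summed to 9.88 and 11.9 CPM in KO IMQ, against 17.1 and 7.68 in control IMQ. Genes of group 2 innate lymphoid and T helper 2 cells (7 of 9), of which Gata3, Rora and Arg1 are also keratinocyte genes, summed to 684 and 619 CPM in KO IMQ, against 772 and 694 in control IMQ, the list that did not overlap. Langerhans and dendritic cell genes (all 8) summed to 2815 and 2731 CPM in KO IMQ, against 4327 and 2308 in control IMQ. Regulatory T cell genes (all 6) summed to 72.1 and 61.3 CPM in KO IMQ, against 79.2 and 68.4 in control IMQ. Of the 5 tested, 2 had a positive and 3 a negative fold change. Ikzf2 averaged 492 in KO IMQ and 978 in control IMQ, Ctla4 12.6 and 38.0, and Tnfrsf18 736 and 558. At an unadjusted p under 0.05 in limma 0 stood higher and 2 lower (10% and 11.9% of all genes), and 0 passed. Foxp3 had only 3 to 7 reads per library. T cell genes (7 of 9) summed to 154 and 99.0 CPM in KO IMQ, against 108 and 117 in control IMQ. The part of these cells in the values above was not tested.

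Among the response genes, the chemokine Ccl22 was at 1483 and 1188 in KO untreated, against 235 and 311 in control untreated (2.29, SE 0.61, limma adjusted p = 0.596). With IMQ it was at 465 and 458 in KO, against 530 and 111 in control. Retnla (-2.52), a gene of alternatively activated macrophages, and the chemokine Ccl8 (-2.04) stood lower in KO IMQ at an unadjusted p under 0.05. So did Arg1 (-0.45), a gene of such macrophages and, as said above, of keratinocytes. Retnla had at most 32.0 in any library. Ccl17, a partner of Ccl22, overlapped under IMQ with 66.6 and 51.4 in KO and 60.6 and 44.5 in control.

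**Figure D4:**
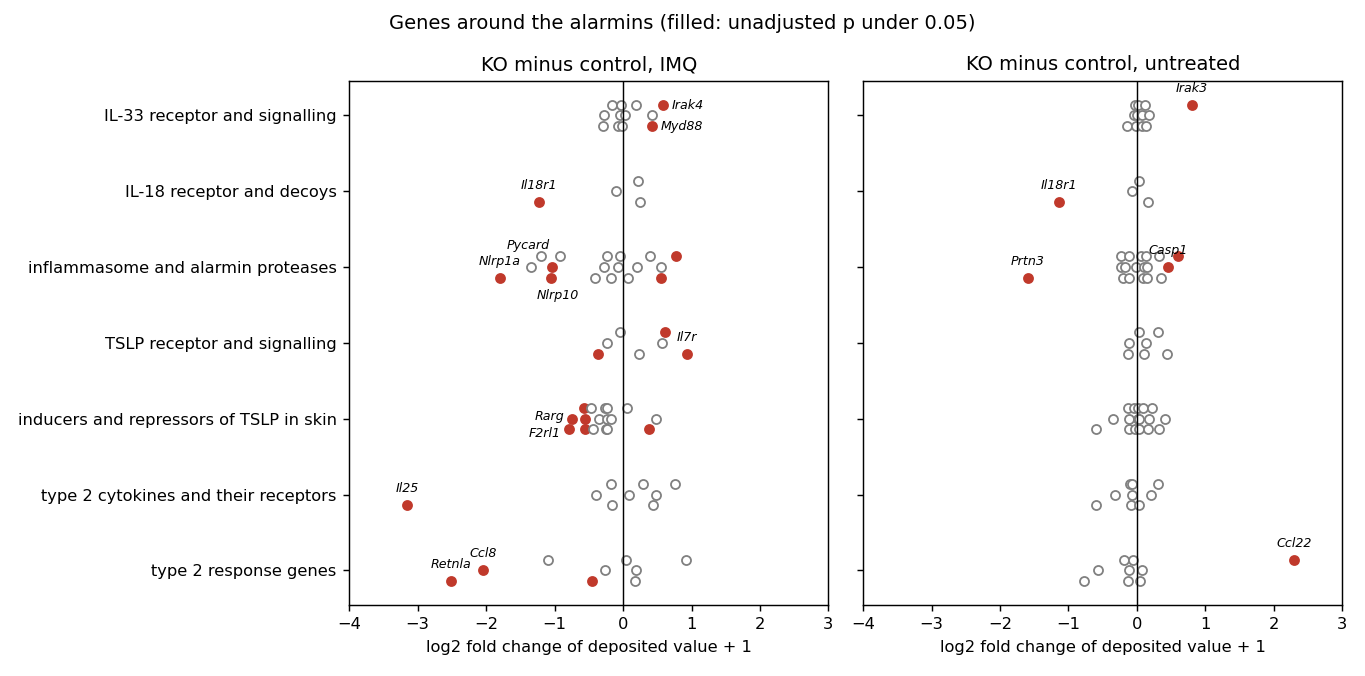
Log2 fold changes, KO minus control, of the listed pathway genes that were tested, under IMQ (left) and untreated (right), from limma on log2 of the deposited value + 1 (1 point per gene, filled where the unadjusted p was under 0.05). Under IMQ, Il25 (-3.15), Retnla (-2.52) and Ccl8 (-2.04) lie farthest to the left. Il18r1 is filled on both sides, and no gene shown passed the adjusted threshold.

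The pattern over the 8 libraries, each taken on the log2 scale minus the mean of its table, was compared between genes. For Il33 this covered 12093 genes with a mean of at least 50. Predicted genes, Riken clones and pseudogenes were compared but are not named. Among the rest, the closest to Il33 were Urah (Pearson r = 0.997), Rpl13a (0.996) and Bclaf3 (0.992). For Il18 the closest were Otub2 (0.996), Dcst2 (0.995) and Ppfia4 (0.992), and for Tslp Zfp612 (0.988), Crls1 (0.987) and Dicer1 (0.984). Il1rl1 was most like Adpgk (0.982), Daam2 (0.955) and Tarsl2 (0.951). The size of the differences was not alike: Urah was at 29512 and 26183 in KO IMQ, against 13647 and 18860 in control IMQ. Among the 4 genes themselves r was 0.863 for Il33 with Tslp, 0.764 for Il33 with Il1rl1 and -0.591 for Il33 with Il18. These points share libraries, depth and the group differences, and are given as a description.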

How the data were processed

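RNA of 8 mouse epidermal samples was sequenced as stranded, polyadenylated libraries. Per the submitters' processing notes the authors worked on mm10 with STAR 2.5.2a, Trimmomatic 0.35, R 3.6.1 and DESeq2 1.24.0; no counter, annotation or gene filter is named there. Each deposited value is a signal: reads of a gene after division by the size factor of the library, in 1 table per treatment. All of them were whole multiples of 1 step per library within 0.001 read, and dividing by that step gave the recovered reads.

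Here limma 3.58.1 (R 4.3.3) was fitted to log2(value + 1) over 4 group means and 8 libraries, with trend and robust moderation, for the 14614 genes with a mean of at least 10 in either table, and p was adjusted by Benjamini-Hochberg (threshold 0.05). The spread is estimated from 4 groups of 2, so p-values rest on few samples. IMQ and untreated were compared on CPM with TMM factors and an added 0.5, without a test. Alternatives included edgeR 4.0.16 and DESeq2 1.42.0 on recovered reads. Only the limma tests of the genotype effects, untreated and under IMQ, were checked on simulated counts, drawn independently per library. The edgeR and DESeq2 fits and the difference of effects were not. Replicates follow sex, and their deviations correlated between groups across genes (r 0.145 to 0.463, and 0.0745 to 0.394 without genes on X and Y). GENCODE positions matched 16750 symbols. Il1rap, Il18r1, Il18rap, Il18bp, Casp1, Crlf2 and Il7r were always named. So were, per list and contrast, up to 3 genes with the largest changes at an unadjusted p under 0.05. The 3 genes most like each alarmin gene were named too, predicted genes, Riken clones and pseudogenes apart. The members and the lists were chosen with earlier results of these data known. Of the listed genes, Il5, Il31, Ccl26, Chil3, Cyp24a1, Naip1, Ctsg and Elane were not analysed here. A gene that met the naming rule is not reported here.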

Additional observations from a re-analysis of the deposited data

How the results depend on the processing

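No limma setting and no edgeR fit brought any of the 4 genes past the threshold, and Il33 and Tslp under IMQ kept their sign in all settings, with adjusted p from 1.14e-05 to 0.190 for Il33 and from 0.00556 to 0.210 for Tslp (8 leave-one-out fits apart, 0.0649 to 0.343 and 0.0717 to 0.343). DESeq2 took Il33 (2.14) and Tslp (1.20) under IMQ and the Il33 difference (2.38) past it; the cause was not tested. Genes called untreated numbered 0, but 5 with a pseudocount of 5, 8 with sex as a replicate block, 8 with each table alone, 6 in edgeR with the block and 87 in DESeq2. Under IMQ the 64 calls became 0 with plain moderation, 358 with the block, 0 with the table alone (fewer samples), 292 in edgeR with the block (43 without) and 1247 in DESeq2. For the difference they were 98 in DESeq2, against 0. The block changed no call of the 4 genes; under IMQ their adjusted p with it were 0.0551 for Il33, 0.0514 for Tslp, 0.0758 for Il18 and 0.384 for Il1rl1. The untreated Il1rl1 effect turned to 0.081 in edgeR, 0.048 in edgeR with the block and 0.086 in DESeq2, and it has no value at a mean of at least 50. Il18 in control, IMQ over untreated, was -0.0020 without TMM.

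Leaving out 1 library, which assumes for the group's single remaining library the spread of the other groups, gave 0 to 2 calls untreated, 0 to 299 under IMQ and 0 to 0 for the difference. Untreated effects ran from -0.63 to 0.28 for Il33, -0.83 to 0.66 for Il1rl1, -0.089 to 1.34 for Il18 and -0.29 to 0.13 for Tslp, so none has a stable sign. Under IMQ they ran from 1.64 to 2.75 for Il33, 0.33 to 1.71 for Il1rl1, -1.37 to -0.26 for Il18 and 0.90 to 1.46 for Tslp. IMQ over untreated in control ran from -0.91 to 0.25 for Il33, -0.47 to 0.95 for Il18 and -0.17 to 0.31 for Tslp. In KO it ran from 1.81 to 2.37 for Il33, 0.99 to 1.82 for Il1rl1, -1.79 to -0.68 for Il18 and 1.04 to 1.40 for Tslp. The difference of effects ran from 1.81 to 2.93 for Il33, 0.36 to 1.84 for Il1rl1, -2.15 to -0.72 for Il18 and 0.98 to 1.54 for Tslp. Il1rl1 and Il25 rest on few reads, 8 to 84 and 1 to 41 per library.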
